A study of Mus musculus with 6 samples.

Results

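The collagen genes of mouse C2C12 cells were described in 2 knockdowns of chromatin remodeling subunits. A gene was taken as a collagen gene where its symbol consisted of Col, a number, the letter a and a number, the form used for collagen alpha chains. This gave 44 of the 27179 genes listed in each of 2 comparison tables: 11 fibrillar, 6 basement membrane, 9 FACIT and 18 other collagens. C2C12 is an immortalised mouse myoblast line that exits the cell cycle and forms myotubes in low serum. The 6 libraries were 2 from cells carrying an shRNA against BAF250A, 2 from cells carrying an shRNA against BRD9 and 2 from cells carrying a scrambled shRNA that targets no gene. All 3 groups were stably transfected and were harvested 48 h after the change to differentiation medium with horse serum and insulin. BAF250A, encoded by Arid1a, is a subunit of the BAF form of the SWI/SNF remodeling enzyme, and BRD9 is a subunit of the non-canonical BAF form. The sources used here do not state whether the stable lines were pools or clones, or how many shRNAs were used per target.

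Collagens are secreted proteins in which 3 alpha chains wind into a triple helix built from repeats of glycine followed by any pair of residues. Fibrillar collagens have a long uninterrupted helix and pack into the cross-striated fibrils of tendon, bone and skin. Basement membrane collagens of type IV form sheets around muscle fibres, and FACIT collagens, whose helices are interrupted, bind to the surface of fibrils. In muscle, most interstitial collagen is known to come from fibroblasts, while myoblasts in culture also express it. The helices differed between the classes in the coding sequences of the GRCm38 GENCODE annotation. The longest stretch of unbroken glycine repeats was between 648 and 1032 residues in the 11 fibrillar genes and between 117 and 198 residues in the 6 basement membrane genes. Among the 9 FACIT genes it was between 96 and 339 residues.

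The deposited material consists of the authors' DESeq2 tables, which give for each gene the mean normalized count over the 4 libraries of a comparison, a log2 fold change with its standard error (SE) and an adjusted p-value. A positive log2 fold change was read as higher in the knockdown, since Arid1a had -1.95 (SE 0.48) with shBAF250A and Brd9 had -1.60 (SE 0.54) with shBRD9 in the authors' deposited tables. The direction therefore rests on the targeted genes. Arid1a had -0.17 (SE 0.52) with shBRD9 and Brd9 had 0.16 (SE 0.44) with shBAF250A in the authors' deposited tables. Total reads per library are unknown, and the relative depths recovered from the low counts (size factors) were 0.801 and 0.773 in shBAF250A libraries, against 1.58 and 1.09 in scrambled shRNA libraries, and 0.841 and 0.782 in shBRD9 libraries, against 1.48 and 1.07 in scrambled shRNA libraries. Both comparisons used the same 2 scrambled shRNA libraries, since 5977 of 5977 genes had the same reads in them. Their results are given side by side and are not independent. Reads of each library could be recovered exactly for 28 of the 44 collagen genes. For the other 16, mostly abundant ones, the mean of each group was computed from the deposited mean and fold change and is called an implied mean. It takes the deposited fold change as the ratio of the group means. Where reads were recovered, that ratio was larger in size than the deposited fold change in 23 of 24 genes with shBAF250A and 22 of 22 with shBRD9. Implied means of 2 groups may therefore lie closer together than the true means. These counts include Col11a1 and Col8a2, for which the search for reads allowed almost only larger ratios. The series text names the replicates biological duplicates and gives no account of separate cultures, so p-values reflect the variation of only 2 libraries a group, which may be technical.

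Collagen transcripts were more abundant in both knockdowns. Summed over all 44 genes, the implied collagen share of all normalized counts was 3.38% in shBAF250A cells, against 0.441% in scrambled shRNA cells. In shBRD9 cells it was 2.04%, against 0.447% in scrambled shRNA cells. These shares come from group means and carry no replicate error. In the authors' deposited table for shBAF250A, 40 collagen genes had an adjusted p, and 19 of them rose (47.5%), 3 fell and 18 were not called at an adjusted p below 0.05. Over all 16450 genes tested there, 11.2% rose and 17.5% fell. In the authors' deposited table for shBRD9, 41 collagen genes had an adjusted p, and 18 rose (43.9%), 1 fell and 22 were not called. Over all 17198 genes tested there, 5.11% rose and 9.33% fell. The median log2 fold change of the tested collagen genes was 1.34 with shBAF250A and 1.31 with shBRD9 in the authors' deposited tables, beside medians of -0.18 and -0.15 over all genes tested. Where the Wald statistics were centred on their median over all genes tested (-0.32 with shBAF250A and -0.24 with shBRD9) and divided by their own spread (2.18 and 1.58), 9 collagen genes rose with shBAF250A and 8 with shBRD9, among 693 and 873 genes called in either direction. How many of those 693 and 873 genes rose is not given here. The genes left without an adjusted p had means near 0, so the counts of collagen genes describe those that could be tested.

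The classes were then counted apart with the authors' Wald test. Of the 11 fibrillar genes, 7 rose and 1 fell with shBAF250A, and 6 rose and 0 fell with shBRD9. Of the 6 basement membrane genes, 2 rose in each knockdown and 0 fell. Of the 7 FACIT genes tested, 2 rose with shBAF250A and 3 with shBRD9, and 0 fell. Where 0 genes of a class fell, the count at an unadjusted p below 0.05 was also 0, except for 1 FACIT gene with shBAF250A. Among the other types, 8 of 16 tested rose and 2 fell with shBAF250A, and 7 of 17 rose and 1 fell with shBRD9. Beside these counts, 11.2% of all genes tested rose and 17.5% fell with shBAF250A. For shBRD9 the shares of all genes were 5.11% and 9.33%. The falls were not above these shares, at 9.09% of fibrillar genes and 12.5% of other types with shBAF250A, and 5.88% of other types with shBRD9. The median log2 fold change in the authors' deposited tables was 2.51 with shBAF250A and 1.49 with shBRD9 for fibrillar genes. For basement membrane genes the same medians in the authors' deposited tables were 0.26 and 1.41, and for FACIT genes 0.90 and 1.23. No test between classes was made.

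**Figure D1:**
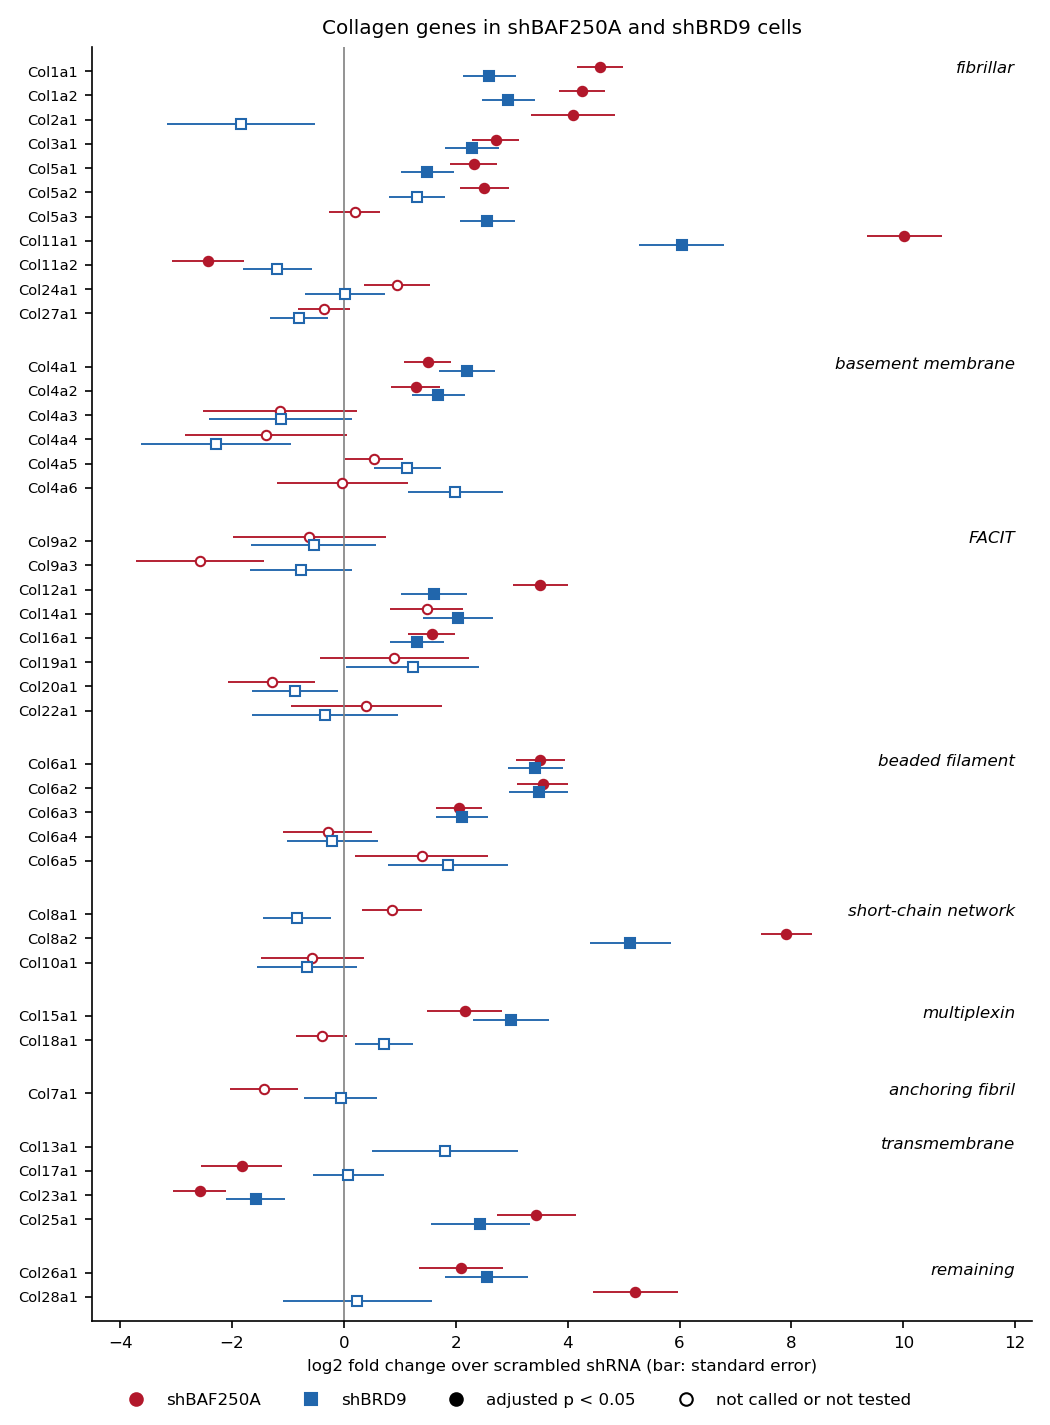
Log2 fold change over scrambled shRNA (horizontal axis) of each collagen gene with a value, by class, in shBAF250A cells (red circles) and shBRD9 cells (blue squares). Bars are standard errors and filled symbols have an adjusted p below 0.05; Col11a1 lies farthest to the right at 10.02 with shBAF250A and 6.04 with shBRD9, and Col5a3 and Col14a1 are filled in blue alone.

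Type I collagen, the main fibril protein of tendon, bone and skin, is assembled from Col1a1 and Col1a2 chains, and both genes rose in both knockdowns. Col1a1 had implied means of 462170 normalized counts in shBAF250A cells, against 19302 in scrambled shRNA cells, and 121571 in shBRD9 cells, against 20081 in scrambled shRNA cells. For Col1a1 the authors' deposited tables gave log2 fold changes of 4.58 (SE 0.41, adjusted p = 2.13e-26) with shBAF250A and 2.60 (SE 0.48, adjusted p = 1.69e-06) with shBRD9. Its partner chain Col1a2 also rose. Col1a2 had implied means of 239695 in shBAF250A cells, against 12526 in scrambled shRNA cells, and 100845 in shBRD9 cells, against 13185 in scrambled shRNA cells. For Col1a2 the authors' deposited tables gave 4.26 (SE 0.41, adjusted p = 5.91e-23) and 2.94 (SE 0.47, adjusted p = 1.80e-08). Col1a1 lies at chr11:94936224-94953042 and Col1a2 at chr6:4505618-4541543, on different chromosomes. Type III collagen, which forms fibrils together with type I in soft tissues, has the single chain gene Col3a1. Col3a1 had implied means of 318761 in shBAF250A cells, against 48722 in scrambled shRNA cells, and 252297 in shBRD9 cells, against 51698 in scrambled shRNA cells. For Col3a1 the authors' deposited tables gave 2.71 (SE 0.42, adjusted p = 3.02e-09) with shBAF250A and 2.29 (SE 0.48, adjusted p = 3.10e-05) with shBRD9.

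Type V collagen sits in the core of type I fibrils and is known to set their diameter. Its Col5a1 and Col5a2 chains rose with shBAF250A, with implied means of 95227 and 62796 in shBAF250A cells, against 19053 and 11009 in scrambled shRNA cells. In the authors' deposited table the log2 fold changes were 2.32 (SE 0.42, adjusted p = 3.41e-07) for Col5a1 and 2.51 (SE 0.44, adjusted p = 1.58e-07) for Col5a2. With shBRD9, Col5a1 rose by 1.49 (SE 0.47, adjusted p = 0.0147) in the authors' deposited table, and Col5a2 had 1.31 (SE 0.50, adjusted p = 0.0552) and was not called. The third chain, Col5a3, was called with shBRD9 and not with shBAF250A. Col5a3 had implied means of 4133 in shBAF250A cells, against 3627 in scrambled shRNA cells, and 23427 in shBRD9 cells, against 3982 in scrambled shRNA cells. For Col5a3 the authors' deposited tables gave 0.19 (SE 0.46, adjusted p = 0.804) with shBAF250A and 2.56 (SE 0.49, adjusted p = 5.33e-06) with shBRD9.

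Type XI collagen is the minor fibrillar collagen of cartilage and nucleates its fibrils. Col11a1 showed the largest fold change of the collagen genes in both knockdowns. Its normalized reads were 3098 and 2836 in the shBAF250A libraries, against 1.90 and 1.83 in the scrambled shRNA libraries. In the shBRD9 comparison they were 204 and 202 in the shBRD9 libraries, against 2.03 and 1.87 in the scrambled shRNA libraries. Both libraries of each knockdown were far above both scrambled shRNA libraries, which held 3 and 2 reads. For Col11a1 the authors' deposited tables gave 10.02 (SE 0.67, adjusted p = 2.34e-47) with shBAF250A and 6.04 (SE 0.76, adjusted p = 1.05e-13) with shBRD9. From the summed reads, the ratio was 1586 with shBAF250A, with a 95% exact interval of 679 to 4886, and 104 with shBRD9, with an interval of 44.0 to 321. These intervals cover counting error only. The other type XI gene, Col11a2, fell with shBAF250A. Its normalized reads were 27.5 and 12.9 in the shBAF250A libraries, against 104 and 133 in the scrambled shRNA libraries, and 58.3 and 44.7 in the shBRD9 libraries, against 111 and 136 in the scrambled shRNA libraries. Its knockdown libraries were all below both scrambled shRNA libraries. For Col11a2 the authors' deposited tables gave -2.43 (SE 0.65, adjusted p = 0.00135) with shBAF250A and -1.19 (SE 0.62, adjusted p = 0.219) with shBRD9. Without the shBAF250A library at 27.5 the log2 ratio of group means of Col11a2 was -3.20, against -2.55 with both libraries.

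Col2a1, the chain of type II collagen of cartilage, had few reads in scrambled shRNA cells and rose with shBAF250A. Its normalized reads were 87.4 and 82.8 in the shBAF250A libraries, against 4.44 and 3.66 in the scrambled shRNA libraries. In the shBRD9 libraries Col2a1 had 0 reads in each, against 7 and 4 reads in the scrambled shRNA libraries. The shBRD9 libraries were thus below both scrambled shRNA libraries. A floor of 3 reads over the group would correspond to 42.8% of the level in scrambled shRNA cells. This figure takes the few scrambled shRNA reads as exact, so the true upper limit is higher. For Col2a1 the authors' deposited tables gave 4.09 (SE 0.75, adjusted p = 8.16e-07) with shBAF250A and -1.84 (SE 1.32, adjusted p = 0.420) with shBRD9. None of the 3 cartilage markers tested was called in either knockdown by the authors' Wald test, and 1 had an unadjusted p below 0.05 with shBAF250A. Acan, the core proteoglycan of cartilage, had a mean normalized count of 2.70 in the shBAF250A comparison and 2.11 in the shBRD9 comparison of the authors' deposited tables. The other tested cartilage markers were Sox9 and Matn3. Sox9 was well detected, with means of 2752 and 3108 and log2 fold changes of -0.30 (SE 0.44) and -0.07 (SE 0.50). Matn3 had means of 32.2 and 12.8, with 1.73 (SE 0.85) for shBAF250A and -0.30 (SE 1.06) for shBRD9. The fibrillar genes Col24a1 and Col27a1 were not called. Their longest unbroken stretches of glycine repeats, of 648 and 651 residues, were shorter than those of the other fibrillar genes. In the authors' deposited tables Col24a1 had 0.94 (SE 0.59) with shBAF250A and 0.02 (SE 0.71) with shBRD9, and Col27a1 had -0.36 (SE 0.46) and -0.81 (SE 0.52).

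The stretches before the start sites of Col11a1, Col8a2, Col1a2 and Col5a3 are shown because they belong to the 2 genes with the largest rises, a type I chain and the gene that was higher with shBRD9. They are RefSeq sequence of build GRCm38.p6, on the gene's own strand, of up to 250 bases before the start and cut where the annotated gene begins. Col11a1 is shown at chr3:114030290-114030478 (+ strand), Col8a2 at chr4:126286544-126286793 (+ strand), Col1a2 at chr6:4505368-4505617 (+ strand) and Col5a3 at chr9:20815118-20815317 (- strand). Capitals mark the letters CCAAT, or ATTGG where the motif lies on the other strand, the core bound by the factor NF-Y.
Col11a1: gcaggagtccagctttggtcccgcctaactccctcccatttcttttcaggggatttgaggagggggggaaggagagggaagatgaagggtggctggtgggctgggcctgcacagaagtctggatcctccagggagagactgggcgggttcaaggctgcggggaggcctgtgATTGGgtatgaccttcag
Col8a2: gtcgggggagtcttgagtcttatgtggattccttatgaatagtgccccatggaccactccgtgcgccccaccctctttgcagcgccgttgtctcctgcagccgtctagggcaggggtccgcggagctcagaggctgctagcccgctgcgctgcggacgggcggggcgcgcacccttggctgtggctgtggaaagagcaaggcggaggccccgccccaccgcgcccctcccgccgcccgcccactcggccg
Col1a2: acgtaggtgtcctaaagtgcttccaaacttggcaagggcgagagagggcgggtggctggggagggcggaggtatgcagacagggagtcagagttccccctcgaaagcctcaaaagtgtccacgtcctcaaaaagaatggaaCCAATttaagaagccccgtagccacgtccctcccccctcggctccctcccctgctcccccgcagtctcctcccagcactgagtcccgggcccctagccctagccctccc
Col5a3: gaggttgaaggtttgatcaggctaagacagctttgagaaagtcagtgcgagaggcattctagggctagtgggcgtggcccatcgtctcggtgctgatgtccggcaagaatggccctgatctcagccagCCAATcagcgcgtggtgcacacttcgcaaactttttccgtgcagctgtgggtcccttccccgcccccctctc
The motif began 79 bases before the listed promoter start in Col11a1, 109 bases before it in Col1a2 and 122 bases before it in Col5a3. These letters were not in the Col8a2 window. In Col11a1 and Col5a3 the annotated gene begins before the listed promoter start. Their printed stretches, of 189 and 200 bases, therefore end short of it, and the motif lies nearer the printed end than these distances. The first listed promoter of each gene was then searched. Of 35 collagen genes with a listed promoter, 12 held CCAAT on either strand within 250 bases before the start, beside 34.5% of 27025 mouse genes. For TATAA on either strand it was 7 of 35 collagen genes, beside 23.5% of all genes. Both shares are close to the background of all promoters.

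Type IV collagen is the sheet-forming collagen of basement membranes, and its common form combines Col4a1 and Col4a2 chains. The 2 genes lie head to head on chromosome 8 with overlapping starts, and both rose in both knockdowns. Col4a1 had implied means of 15390 in shBAF250A cells, against 5447 in scrambled shRNA cells, and 26952 in shBRD9 cells, against 5885 in scrambled shRNA cells. For Col4a1 the authors' deposited tables gave 1.50 (SE 0.42, adjusted p = 0.00204) with shBAF250A and 2.20 (SE 0.50, adjusted p = 1.70e-04) with shBRD9. Col4a2 had implied means of 18185 in shBAF250A cells, against 7464 in scrambled shRNA cells, and 25622 in shBRD9 cells, against 7918 in scrambled shRNA cells. For Col4a2 the authors' deposited tables gave 1.28 (SE 0.43, adjusted p = 0.0129) and 1.69 (SE 0.48, adjusted p = 0.00433). The pair overlaps on opposite strands, by 0.333% of the exonic bases of Col4a1, and the sources used here do not say whether reads were counted by strand.

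The remaining type IV genes, whose chains are known from kidney, lung and smooth muscle basement membranes, were not called. Col4a5, on the X chromosome, had implied means of 920 in shBAF250A cells, against 632 in scrambled shRNA cells, and 1496 in shBRD9 cells, against 683 in scrambled shRNA cells. Its log2 fold changes in the authors' deposited tables were 0.54 (SE 0.52, adjusted p = 0.470) and 1.13 (SE 0.60, adjusted p = 0.234). Its head-to-head neighbour Col4a6 had normalized reads of 15.0 and 2.59 in the shBAF250A libraries, against 13.3 and 4.57 in the scrambled shRNA libraries, so the groups overlapped. In the shBRD9 libraries Col4a6 had 52.3 and 38.3, against 14.2 and 4.68 in the scrambled shRNA libraries, with no overlap. For Col4a6 the authors' deposited table for shBRD9 gave 1.99 (SE 0.85, adjusted p = 0.107). Col4a3 and Col4a4, another head-to-head pair, had between 0 and 20 reads in each library.

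Of the FACIT genes, Col12a1, Col16a1 and Col14a1 were called. Type XII collagen links fibrils to other matrix and is known from muscle, tendon and ligament. Col12a1 had implied means of 76852 in shBAF250A cells, against 6747 in scrambled shRNA cells, and 21362 in shBRD9 cells, against 7004 in scrambled shRNA cells. For Col12a1 the authors' deposited tables gave 3.51 (SE 0.49, adjusted p = 3.45e-11) with shBAF250A and 1.61 (SE 0.59, adjusted p = 0.0477) with shBRD9. Col16a1, a FACIT found near fibrils and basement membranes, had implied means of 3012 in shBAF250A cells, against 1014 in scrambled shRNA cells, and 2625 in shBRD9 cells, against 1065 in scrambled shRNA cells. For Col16a1 the authors' deposited tables gave 1.57 (SE 0.42, adjusted p = 0.00150) and 1.30 (SE 0.48, adjusted p = 0.0489). With shBRD9 both lost their call after the fold changes were centred on the median gene, at adjusted p of 0.057 for Col12a1 and 0.0607 for Col16a1. The related Col14a1, which binds decorin on fibrils, was called with shBRD9 alone, and its difference between the knockdowns was not called. Its normalized reads were 62.4 and 119 in the shBAF250A libraries, against 34.3 and 27.4 in the scrambled shRNA libraries, and 119 and 171 in the shBRD9 libraries, against 36.6 and 28.1 in the scrambled shRNA libraries. For Col14a1 the authors' deposited tables gave 1.48 (SE 0.65, adjusted p = 0.0702) with shBAF250A and 2.04 (SE 0.62, adjusted p = 0.0103) with shBRD9. Both knockdowns were above both scrambled shRNA libraries for this gene.

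Among the other FACIT genes, type IX collagen is the partner of type II on cartilage fibrils and was close to absent. Col9a1 had 0 reads in all 6 libraries, and Col9a2 had 0 reads in all knockdown libraries and 3 and 0 reads in the scrambled shRNA libraries. Col9a3 had normalized reads of 0 and 5.17 in the shBAF250A libraries, against 22.2 and 21.9 in the scrambled shRNA libraries, and 9.51 and 15.3 in the shBRD9 libraries, against 23.7 and 22.5 in the scrambled shRNA libraries. Although these groups did not overlap, Col9a3 was not called, with -2.57 (SE 1.14, adjusted p = 0.0735) and -0.77 (SE 0.91, adjusted p = 0.670) in the authors' deposited tables. Exons of Tcfl5 on the other strand overlap 7.68% of the Col9a3 exons. Col19a1, Col20a1 and Col22a1 were not called, with log2 fold changes in the authors' deposited tables from -1.29 for Col20a1 to 0.90 for Col19a1 with shBAF250A and from -0.88 for Col20a1 to 1.23 for Col19a1 with shBRD9.

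Type VI collagen forms beaded microfilaments around muscle fibres, and mutations in its chains are known to cause muscular dystrophies in humans. Its 3 classical chains rose in both knockdowns. Col6a1 had implied means of 61934 in shBAF250A cells, against 5436 in scrambled shRNA cells, and 62701 in shBRD9 cells, against 5845 in scrambled shRNA cells. For Col6a1 the authors' deposited tables gave 3.51 (SE 0.44, adjusted p = 3.70e-14) with shBAF250A and 3.42 (SE 0.49, adjusted p = 1.73e-10) with shBRD9. Col6a2, which lies in tandem with Col6a1 on chromosome 10, had implied means of 56266 in shBAF250A cells, against 4806 in scrambled shRNA cells, and 57964 in shBRD9 cells, against 5210 in scrambled shRNA cells. For Col6a2 the authors' deposited tables gave 3.55 (SE 0.46, adjusted p = 4.33e-13) and 3.48 (SE 0.53, adjusted p = 2.56e-09). The third chain, Col6a3, is encoded on chromosome 1 and had a smaller fold change than its partners, although no test compared the chains. Col6a3 had implied means of 45683 in shBAF250A cells, against 10940 in scrambled shRNA cells, and 50362 in shBRD9 cells, against 11632 in scrambled shRNA cells. For Col6a3 the authors' deposited tables gave 2.06 (SE 0.41, adjusted p = 7.49e-06) and 2.11 (SE 0.47, adjusted p = 1.06e-04). The later-described chains Col6a4, Col6a5 and Col6a6 form a cluster on chromosome 9. Col6a6 had 0 reads in all 6 libraries, and Col6a4 and Col6a5 were not called. Col6a4 had normalized reads of 37.4 and 18.1 in the shBAF250A libraries, against 21.0 and 48.4 in the scrambled shRNA libraries, and 42.8 and 17.9 in the shBRD9 libraries, against 22.3 and 49.6 in the scrambled shRNA libraries. The groups overlapped in both comparisons. Col6a5 had 12.5 and 10.3 in the shBAF250A libraries, against 5.08 and 1.83 in the scrambled shRNA libraries, and 11.9 and 25.6 in the shBRD9 libraries, against 5.42 and 1.87 in the scrambled shRNA libraries, again without overlap.

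Type VIII collagen is a short-chain collagen that forms hexagonal networks, known from the membrane under the corneal endothelium and from vessel walls. Its Col8a2 chain, at chr4:126286794-126314330, rose with both knockdowns. The normalized reads of Col8a2 were 8437 and 8118 in the shBAF250A libraries, against 25.4 and 35.7 in the scrambled shRNA libraries. In the shBRD9 comparison they were 314 and 2697 in the shBRD9 libraries, against 27.1 and 36.5 in the scrambled shRNA libraries. Both shBRD9 libraries were above both scrambled shRNA libraries but far apart from each other. For Col8a2 the authors' deposited tables gave 7.91 (SE 0.46, adjusted p = 7.72e-64) with shBAF250A and 5.12 (SE 0.72, adjusted p = 6.00e-11) with shBRD9. Without the shBRD9 library at 2697 the log2 ratio of group means with shBRD9 was 3.30, and without the library at 314 it was 6.41. With both libraries this ratio was 5.57. The partner chain Col8a1 was not called. Col8a1 had implied means of 11873 in shBAF250A cells, against 6533 in scrambled shRNA cells, and 3763 in shBRD9 cells, against 6736 in scrambled shRNA cells. For Col8a1 the authors' deposited tables gave 0.86 (SE 0.53, adjusted p = 0.228) and -0.84 (SE 0.60, adjusted p = 0.413). Col10a1, the short-chain collagen of hypertrophic cartilage, had -0.57 (SE 0.92) with shBAF250A and -0.66 (SE 0.89) with shBRD9 in the authors' deposited tables and was not called.

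**Figure D2:**
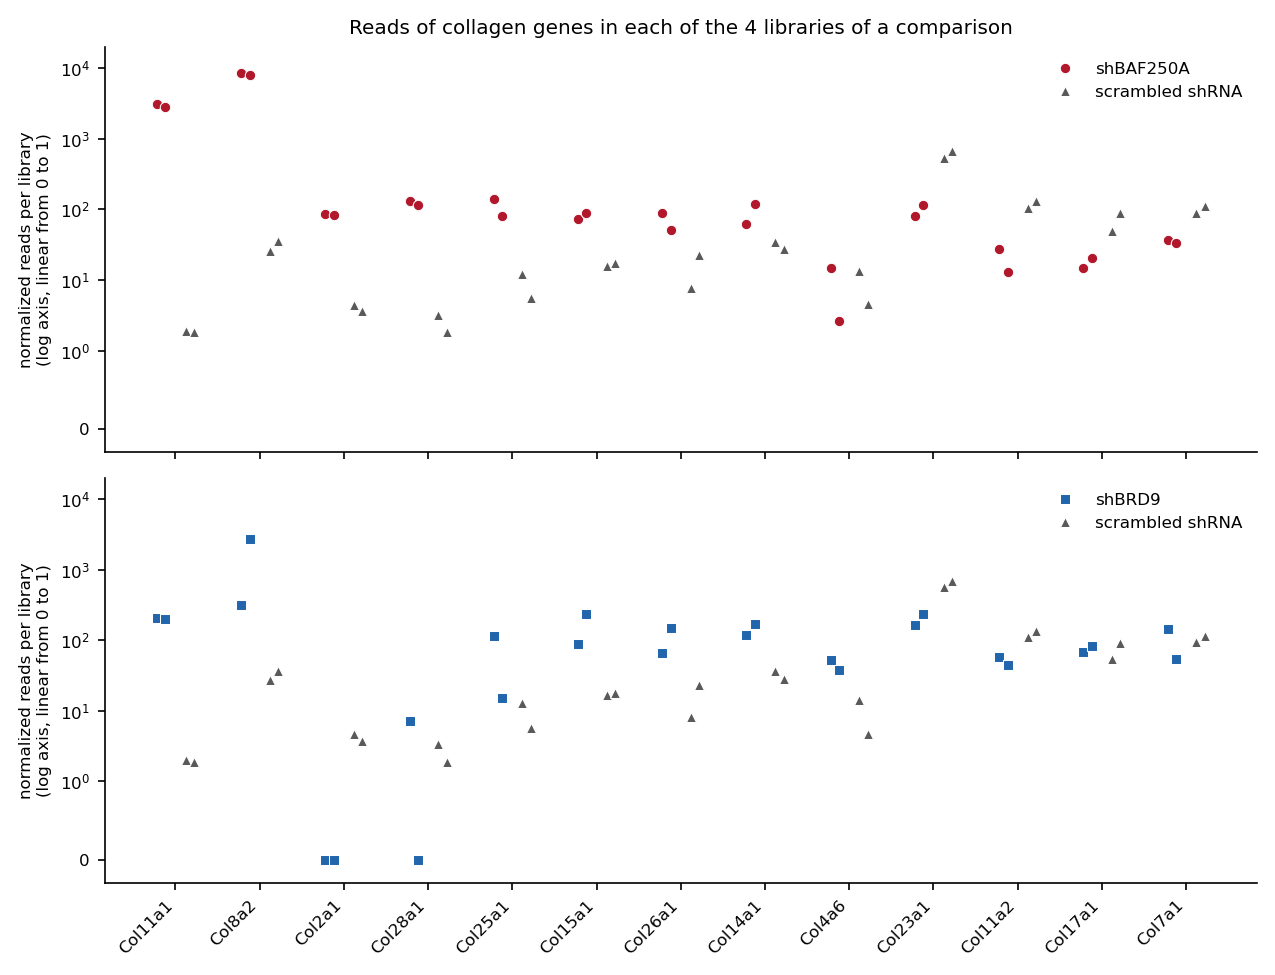
Normalized reads of 13 collagen genes with recovered reads (vertical log axis, linear from 0 to 1) in each library of the shBAF250A comparison (top, red circles) and the shBRD9 comparison (bottom, blue squares), with the scrambled shRNA libraries as grey triangles. Col11a1 stands at 3098 and 2836 in shBAF250A libraries and at 204 and 202 in shBRD9 libraries, while the shBRD9 libraries are far apart for Col8a2 (314 and 2697) and Col25a1 (114 and 15.3).

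The multiplexin Col15a1, a collagen of the outer face of basement membranes around muscle fibres and capillaries, rose in both knockdowns. Its normalized reads were 72.4 and 88.0 in the shBAF250A libraries, against 15.9 and 17.4 in the scrambled shRNA libraries, and 88.0 and 233 in the shBRD9 libraries, against 16.9 and 17.8 in the scrambled shRNA libraries. The groups did not overlap in either comparison. For Col15a1 the authors' deposited tables gave 2.16 (SE 0.67, adjusted p = 0.00652) with shBAF250A and 2.98 (SE 0.68, adjusted p = 1.84e-04) with shBRD9. The log2 ratio of group means with shBRD9 was 2.34 without the library at 233 and 3.75 without the library at 88.0, beside 3.21 with both. The other multiplexin, Col18a1, whose tail is released as endostatin, was among the abundant collagens and was not called. Col18a1 had implied means of 12928 in shBAF250A cells, against 17026 in scrambled shRNA cells, and 29306 in shBRD9 cells, against 17975 in scrambled shRNA cells. Its log2 fold changes in the authors' deposited tables were -0.40 (SE 0.45, adjusted p = 0.555) and 0.71 (SE 0.52, adjusted p = 0.437). Col7a1, the anchoring fibril collagen of skin, had normalized reads of 37.4 and 33.6 in the shBAF250A libraries, against 88.2 and 112 in the scrambled shRNA libraries. Col7a1 was not called, with -1.43 (SE 0.61, adjusted p = 0.0633) with shBAF250A and -0.06 (SE 0.65, adjusted p = 0.973) with shBRD9 in the authors' deposited tables.

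The transmembrane collagens, which are anchored in the plasma membrane with an extracellular helix, held 2 of the 3 collagen genes that fell with shBAF250A and the gene that fell with shBRD9. Col23a1 had normalized reads of 79.9 and 114 in the shBAF250A libraries, against 540 and 670 in the scrambled shRNA libraries, and 166 and 238 in the shBRD9 libraries, against 575 and 686 in the scrambled shRNA libraries. All knockdown libraries were below both scrambled shRNA libraries. For Col23a1 the authors' deposited tables gave -2.58 (SE 0.48, adjusted p = 1.33e-06) with shBAF250A and -1.58 (SE 0.52, adjusted p = 0.0196) with shBRD9. Col17a1, a component of the hemidesmosomes of epithelia, had normalized reads of 15.0 and 20.7 in the shBAF250A libraries, against 50.2 and 87.8 in the scrambled shRNA libraries. In the shBRD9 libraries it had 69.0 and 83.1, against 53.5 and 89.9 in the scrambled shRNA libraries, and the groups overlapped. The shBAF250A libraries lay below both scrambled shRNA libraries. For Col17a1 the authors' deposited tables gave -1.83 (SE 0.72, adjusted p = 0.0388) with shBAF250A and 0.08 (SE 0.64, adjusted p = 0.961) with shBRD9. Col25a1, a membrane collagen known for its part in motor innervation of muscle in mice, rose in both knockdowns. Its normalized reads were 142 and 80.2 in the shBAF250A libraries, against 12.1 and 5.48 in the scrambled shRNA libraries, and 114 and 15.3 in the shBRD9 libraries, against 12.9 and 5.62 in the scrambled shRNA libraries. The groups did not overlap, although the shBRD9 library at 15.3 lay close to the scrambled shRNA library at 12.9. For Col25a1 the authors' deposited tables gave 3.44 (SE 0.70, adjusted p = 1.04e-05) and 2.44 (SE 0.89, adjusted p = 0.0454). The value with shBRD9 rests on the library at 114, without which the log2 ratio of group means was 0.72, while without the library at 15.3 it was 3.62. Its call with shBRD9 was lost after the fold changes were centred on the median gene, at an adjusted p of 0.0512. Without the scrambled shRNA library at the higher level the log2 ratio was 4.34 with shBAF250A and 3.52 with shBRD9, beside 3.66 and 2.80 with all libraries. Col13a1, known from the neuromuscular junction, had 2 and 4 reads in the shBRD9 libraries and 0 reads in the other 4 libraries.

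Col28a1 and Col26a1, collagens outside the other classes, completed the genes that rose. Col28a1, a beaded collagen known from peripheral nerve in mice, had normalized reads of 132 and 116 in the shBAF250A libraries, against 3.17 and 1.83 in the scrambled shRNA libraries, and 7.13 and 0 in the shBRD9 libraries, against 3.38 and 1.87 in the scrambled shRNA libraries. It stood apart with shBAF250A, while the groups overlapped with shBRD9. For Col28a1 the authors' deposited tables gave 5.21 (SE 0.76, adjusted p = 1.70e-10) with shBAF250A and 0.24 (SE 1.33, adjusted p = 0.942) with shBRD9. The ratio of its summed reads with shBAF250A was 47.5, with a 95% exact interval of 22.6 to 120. Col26a1 had normalized reads of 89.9 and 51.7 in the shBAF250A libraries, against 7.62 and 22.9 in the scrambled shRNA libraries, and 65.4 and 150 in the shBRD9 libraries, against 8.12 and 23.4 in the scrambled shRNA libraries. All knockdown libraries were above both scrambled shRNA libraries. For Col26a1 the authors' deposited tables gave 2.09 (SE 0.75, adjusted p = 0.0229) and 2.55 (SE 0.74, adjusted p = 0.00655). The log2 ratio of group means of Col26a1 without the scrambled shRNA library at the higher level was 3.22 with shBAF250A and 3.73 with shBRD9, beside 2.21 and 2.77 with all libraries. Without the shBRD9 library at 150 it was 2.05.

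The makeup of the collagen transcripts was dominated by fibrillar genes. Their implied means summed to 1186370 normalized counts in shBAF250A cells, against 114912 in scrambled shRNA cells, and to 583146 in shBRD9 cells, against 121026 in scrambled shRNA cells. Fibrillar genes made up 79.2% of the collagen counts in shBAF250A cells, against 63.1% in scrambled shRNA cells, and 67.2% in shBRD9 cells, against 63.0% in scrambled shRNA cells. Per kilobase of transcript, Col1a1 had the highest level of all collagen genes in shBAF250A cells, at 77938 normalized counts per kilobase, ahead of Col3a1 at 57290 and Col1a2 at 44819. In shBRD9 cells Col3a1 led at 45345 normalized counts per kilobase, ahead of Col1a1 at 20501 and Col1a2 at 18856. In the scrambled shRNA cells of the shBAF250A comparison Col3a1 led at 8757 normalized counts per kilobase, and Col1a1 at 3255, Col18a1 at 3043 and Col1a2 at 2342 followed. These implied group means have no error of their own, and neighbours in these orders were not tested.

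**Figure D3:**
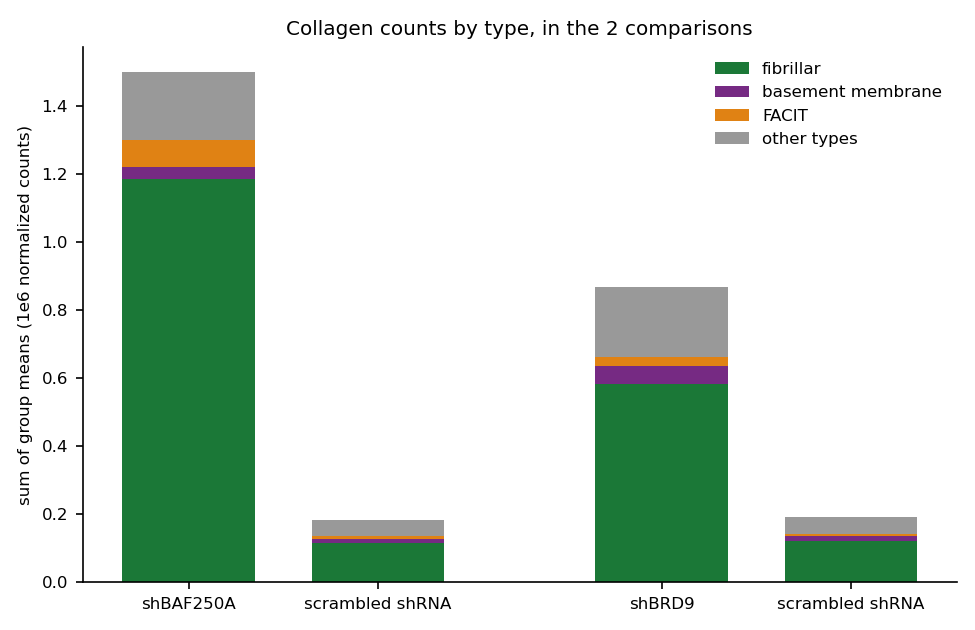
Implied group means summed over the collagen genes of each class (stacked bars, normalized counts in units of 1e6) in shBAF250A and scrambled shRNA cells (left pair) and in shBRD9 and scrambled shRNA cells (right pair). Fibrillar genes form the largest block of each bar, 1186370 normalized counts in shBAF250A cells and 583146 in shBRD9 cells.

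A call in only 1 of the knockdowns does not show a difference, so the log2 fold changes were also compared directly. The difference of the 2 log2 fold changes was tested against its summed error over 16311 genes. Of the 40 collagen genes in that test, 4 were higher with shBAF250A and 1 was higher with shBRD9, beside 0.552% and 1.99% of all genes. Higher with shBAF250A were Col2a1 by 5.93 (SE 1.52, adjusted p = 0.00635), Col28a1 by 4.97 (SE 1.53, adjusted p = 0.0471), Col11a1 by 3.98 (SE 1.02, adjusted p = 0.00594) and Col8a2 by 2.79 (SE 0.86, adjusted p = 0.0454) on the log2 scale. Col5a3 was the gene higher with shBRD9, at -2.37 (SE 0.67, adjusted p = 0.0218). The Col2a1 difference includes a fitted value for shBRD9 libraries with 0 reads, and the Col8a2 difference includes the shBRD9 libraries at 314 and 2697 normalized reads. The call of the Col8a2 difference was lost after centring on the median gene, at an adjusted p of 0.0502. For Col1a1 the difference was 1.98 (SE 0.64, adjusted p = 0.0638), for Col1a2 1.32 (SE 0.63, adjusted p = 0.496) and for Col12a1 1.90 (SE 0.77, adjusted p = 0.280), and none of these passed. The type VI chains had the smallest differences among the abundant genes, with 0.09 (SE 0.66) for Col6a1, 0.07 (SE 0.70) for Col6a2 and -0.05 (SE 0.62) for Col6a3. Treating the fold changes as independent although they share the scrambled shRNA libraries makes this test conservative. With a correlation of 0.5 between them, 8 genes were higher with shBAF250A, the additional ones being Col1a1, Col1a2, Col12a1 and Col8a1.

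**Figure D4:**
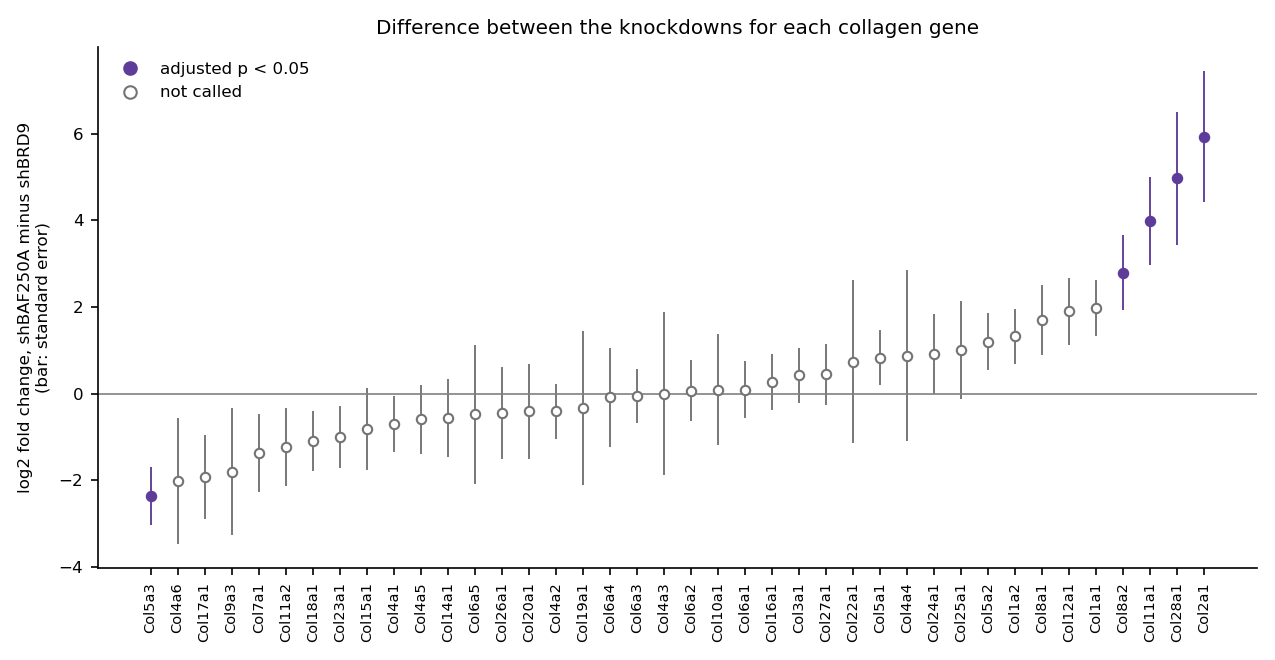
Difference of the log2 fold changes, shBAF250A minus shBRD9 (vertical axis, bars are standard errors), for each of the 40 collagen genes tested in both comparisons, in rising order. Filled symbols have an adjusted p below 0.05; Col5a3 at -2.37 is the filled symbol at the left end, and Col8a2, Col11a1, Col28a1 and Col2a1 are those at the right end, from 2.79 to 5.93.

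The genes that make and modify collagen were counted in the same way. Of 32 tested genes for synthesis and processing, 11 rose (34.4%) and 4 fell (12.5%) with shBAF250A, and 1 rose (3.12%) and 0 fell with shBRD9. Over all genes tested 11.2% rose and 17.5% fell with shBAF250A, and 5.11% rose and 9.33% fell with shBRD9. The shares that fell and the share that rose with shBRD9 were thus not above those of all genes. At an unadjusted p below 0.05 in the authors' deposited table for shBRD9, 1 gene fell. None of the 32 passed the test of the difference between the knockdowns at an adjusted p below 0.05, and at an unadjusted p below 0.05 2 were higher with shBAF250A and 2 with shBRD9. Adamts2, the protease that removes the amino-terminal propeptide of fibrillar collagens, rose by 3.07 (SE 0.44, adjusted p = 1.08e-10) with shBAF250A and by 2.58 (SE 0.51, adjusted p = 7.81e-06) with shBRD9 in the authors' deposited tables. Lox, which oxidises lysines for cross-links, rose by 3.06 (SE 0.52, adjusted p = 6.91e-08) with shBAF250A and had 0.80 (SE 0.57, adjusted p = 0.415) with shBRD9 in the authors' deposited tables. P4ha1 and P4ha3 encode catalytic subunits of the prolyl hydroxylase that stabilises the helix, and they rose with shBAF250A, by 2.01 (SE 0.42) for P4ha1 and 1.84 (SE 0.43) for P4ha3 in the authors' deposited table. Loxl2 and Adamts14, relatives of Lox and Adamts2, fell, with -2.32 (SE 0.44) for Loxl2 and -2.03 (SE 0.42) for Adamts14 in the authors' deposited table for shBAF250A. Pcolce2, an enhancer of procollagen cleavage, and Tmem38b, an ion channel of the endoplasmic reticulum, also fell, with -1.78 (SE 0.44) and -1.29 (SE 0.45) in that authors' deposited table.

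Of the genes for collagen receptors, 2 of 8 tested rose and 1 fell with shBAF250A, beside 11.2% and 17.5% of all genes, and 2 of 7 rose with shBRD9, beside 5.11% of all genes. Itga11, the integrin subunit that binds fibrillar collagen on fibroblasts, had implied means of 11729 in shBAF250A cells, against 31.0 in scrambled shRNA cells, and 1520 in shBRD9 cells, against 35.3 in scrambled shRNA cells. For Itga11 the authors' deposited tables gave 8.56 (SE 0.48, adjusted p = 1.15e-68) with shBAF250A and 5.43 (SE 0.64, adjusted p = 8.81e-16) with shBRD9, and the difference of 3.14 (SE 0.79, adjusted p = 0.00541) was called. Itga1, a subunit that binds type IV collagen, rose by 5.16 (SE 0.58) with shBAF250A and by 3.08 (SE 0.74) with shBRD9 in the authors' deposited tables. Itga10, a subunit known from cartilage, fell by 1.69 (SE 0.52) with shBAF250A in the authors' deposited table. Among genes for turnover, 2 of 9 rose (22.2%) and 3 fell (33.3%) in each knockdown. Over all genes tested 11.2% rose and 17.5% fell with shBAF250A, and 5.11% rose and 9.33% fell with shBRD9. Mmp2, a gelatinase, rose to an implied mean of 21747 in shBAF250A cells, against 1356 in scrambled shRNA cells, and to 19979 in shBRD9 cells, against 1458 in scrambled shRNA cells. Timp3, a matrix-bound inhibitor of such proteases, rose by 3.90 (SE 0.49) with shBAF250A and by 1.66 (SE 0.56) with shBRD9 in the authors' deposited tables. The collagenases Mmp8 and Mmp13 fell, with log2 fold changes of -5.26 (SE 0.87) and -5.02 (SE 0.99) for shBAF250A and of -5.77 (SE 0.93) and -6.04 (SE 1.11) for shBRD9 in the authors' deposited tables. Mmp9, another gelatinase, had -1.16 (SE 0.45, adjusted p = 0.0388) with shBAF250A and -1.87 (SE 0.57, adjusted p = 0.00926) with shBRD9 in the authors' deposited tables.

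Of 11 tested fibril-associated genes, 4 rose (36.4%) with shBAF250A, against 11.2% of all genes in that comparison. With shBRD9, 1 rose (9.09%) and 1 fell (9.09%), against 5.11% and 9.33% of all genes in the shBRD9 comparison. Fmod, the small proteoglycan fibromodulin that regulates fibril assembly, rose by 8.04 (SE 0.47, adjusted p = 4.65e-63) with shBAF250A and by 5.22 (SE 0.74, adjusted p = 7.50e-11) with shBRD9 in the authors' deposited tables. With shBAF250A, Bgn, the proteoglycan biglycan, rose by 2.19 (SE 0.42), Sparc, a collagen-binding glycoprotein, by 2.06 (SE 0.42) and Thbs1, a thrombospondin, by 1.71 (SE 0.52) in the authors' deposited table. Postn, encoding periostin, fell by 2.20 (SE 0.63, adjusted p = 0.00539) with shBRD9 and had 0.67 (SE 0.59, adjusted p = 0.426) with shBAF250A in the authors' deposited tables. The difference for Postn was 2.87 (SE 0.87, adjusted p = 0.0382).

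**Figure D5:**
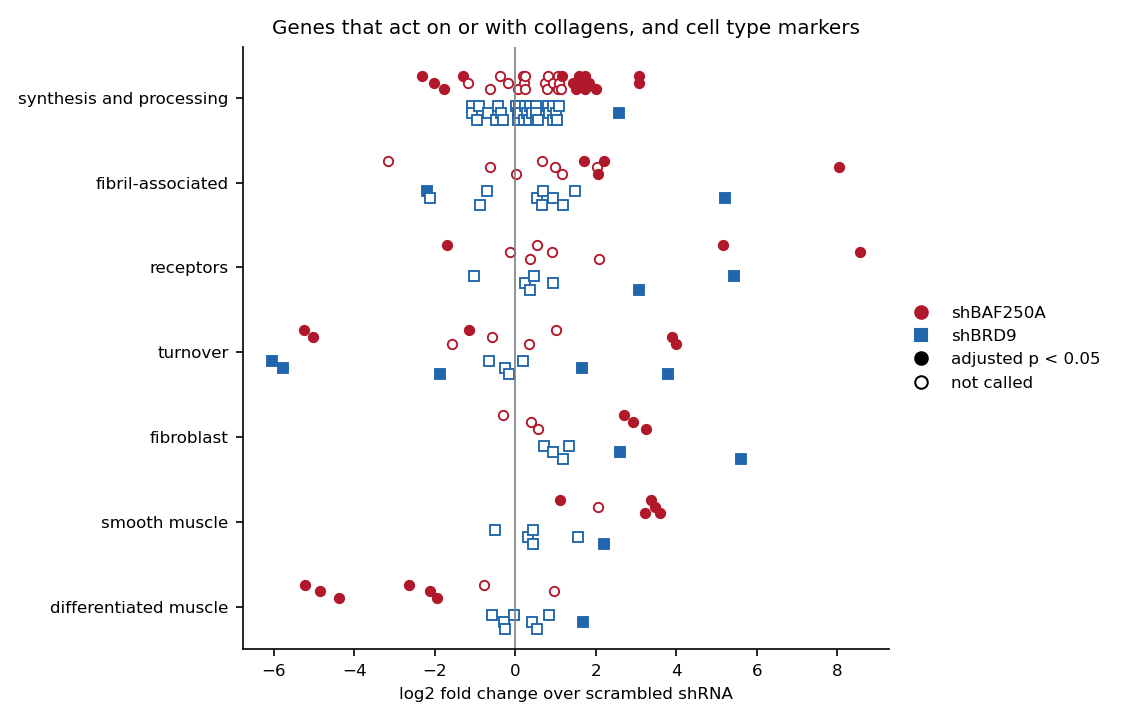
Log2 fold change over scrambled shRNA (horizontal axis) of the tested genes of 4 collagen-related lists and 3 cell type marker lists, in shBAF250A cells (red circles) and shBRD9 cells (blue squares). Filled symbols have an adjusted p below 0.05. In the row of differentiated muscle markers 6 red symbols are filled on the left and 1 blue symbol, Myod1, on the right. Vertical offsets only separate symbols.

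Lists of cell type markers were counted beside the collagen genes. Over all genes tested 11.2% rose and 17.5% fell with shBAF250A, and 5.11% rose and 9.33% fell with shBRD9. The lists held between 1 and 8 tested genes, and no set test was made. All 8 genes of the differentiated muscle list were detected, and 6 of 8 fell with shBAF250A while 1 rose with shBRD9. The gene that rose was the myogenic factor gene Myod1, by 1.67 (SE 0.53, adjusted p = 0.0142) in the authors' deposited table. Myh3, Ckm, Mymk and Acta1 were among those not called with shBRD9. Over all 8 genes of the list, implied means summed to 169022 normalized counts in shBAF250A cells, against 621865 in scrambled shRNA cells. In shBRD9 cells this muscle sum was 624432, against 647701 in scrambled shRNA cells. Des, called in neither knockdown, made up most of the shBAF250A sum, at 101906, against 175968 in scrambled shRNA cells. Of the fibroblast markers, 3 of 6 tested rose with shBAF250A and 2 of 6 with shBRD9. Their summed implied means were 26500 in shBAF250A cells, against 5077 in scrambled shRNA cells. In shBRD9 cells the sum was 23171, against 5396 in scrambled shRNA cells. Most of each sum came from Pdgfrb, at 22295 in shBAF250A cells, against 2952 in scrambled shRNA cells. In shBRD9 cells Pdgfrb was at 19166, against 3152 in scrambled shRNA cells. Pdgfrb alone was called in both knockdowns, and Dpt, Pi16 and Cd34 were called in neither. Tcf21, another fibroblast marker, was at 0 in both comparisons. Smooth muscle markers rose in 5 of 6 cases with shBAF250A and in 1 of 6 with shBRD9. Their sums were 410600 in shBAF250A cells, against 175153 in scrambled shRNA cells. In shBRD9 cells the sum was 254814, against 181814 in scrambled shRNA cells. Most of each sum came from Acta2, at 367531 in shBAF250A cells, against 171283 in scrambled shRNA cells. In shBRD9 cells Acta2 was at 243025, against 177786 in scrambled shRNA cells, and was not called. Tendon markers rose in 2 of 3 tested with shBAF250A and in 0 of 2 with shBRD9, while their summed implied means were 2402 in shBAF250A cells, against 4259 in scrambled shRNA cells, and 4333 in shBRD9 cells, against 4439 in scrambled shRNA cells. Scx, the most abundant tendon marker, was not called, with -1.11 (SE 0.51, adjusted p = 0.0851) with shBAF250A in the authors' deposited table. Bone markers had 1 rise and 1 fall of 5 tested with shBAF250A and 1 fall of 5 with shBRD9. Of the macrophage markers 1 of 2 tested fell in each knockdown, of the endothelial markers 1 of 3 tested fell with shBAF250A and 1 of 4 with shBRD9, and 0 of 1 epithelial marker tested with shBAF250A and 0 of 2 with shBRD9 were called. Where a marker list had 0 calls in a knockdown, the cartilage list with shBAF250A had 1 gene at an unadjusted p below 0.05 and the others had 0. The part of these markers in the collagen results was not tested. In bulk libraries, more cells of a collagen-producing kind and more RNA per cell cannot be told apart.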

How the data were processed

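RNA of 6 C2C12 libraries, 2 each of shBAF250A, shBRD9 and scrambled shRNA cells, was compared in 2 tables made by the authors. The tools in the submitters' processing notes are Bowtie, DESeq2, HISAT, RSEM and StringTie, without versions or roles, and the build is mm10. The deposited signal is a mean normalized count, taken over the 4 libraries of a comparison with size factors divided out, per the file headers. The deposited fold changes are log2 values, and the authors list a standard error in log2 units beside each. The Wald score in the deposited tables is the authors' fold change divided by its error. The deposited p-value is that of the Wald test, and a recalculation gave the deposited adjusted p as a Benjamini-Hochberg adjustment. No counts per library were used as deposited values, so neither edgeR nor DESeq2 was run, and the authors' DESeq2 test at an adjusted p below 0.05 was taken as it stands.

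Whole reads of each library were recovered from the digits of the mean normalized counts, solving both tables together. Every gene whose mean lay under 12 resolved, 6494 in the shBAF250A table and 6350 in the shBRD9 table, with a largest residual of 5.1e-09 normalized counts. Of the collagen genes, 26 resolved with no limit and 2, Col11a1 and Col8a2, with the group ratio held near the deposited fold change. That limit lay almost wholly on the side of larger ratios. The libraries were told apart by size factor, and which of them is replicate A or B is unknown. The log2 ratio of group means was larger in size than the authors' fold change in 23 of 24 resolved genes with a ratio in the shBAF250A table and in 22 of 22 in the shBRD9 table. The difference between the knockdowns was tested with a two-sided normal test of the fold changes and Benjamini-Hochberg adjustment over 16311 genes. Median standard errors of genes with a mean of at least 100 were 0.48 and 0.54, and the smallest log2 fold changes called were 1.02 and 1.29 in size, for shBAF250A and shBRD9. Fold changes were not adjusted for sequence: at most 4.52% of the 31-base words of a collagen transcript occur in another gene. Levels per kilobase used the transcript with the longest coding sequence in the GENCODE annotation of GRCm38. Python 3.11.15, numpy 2.4.6, pandas 2.3.3 and scipy 1.17.1 were used, and the procedures were checked on simulated data.

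The members, classes, pathway lists and marker lists were chosen with earlier results of these data known. Values are given for every collagen gene called in either knockdown or in the difference, and for chain partners with a mean of at least 10. In each other list up to 4 called genes per direction and knockdown with the largest Wald statistic in size are named. Marker lists are given as counts and sums, with a few single genes named beside them.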

Additional observations from a re-analysis of the deposited data

How the results depend on the processing

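No called fold change changed sign under the settings tried, while the counts of calls depended on the strictness of the test. Counts over all genes are not given for these settings, apart from 693 and 873 genes called in either direction with the Wald statistics divided by their spread. The counts below therefore do not show how the collagen genes stood beside all genes. With the threshold at an adjusted p below 0.01, 0 collagen genes fell with shBRD9, 1 basement membrane gene rose with shBAF250A, 0 FACIT genes and 1 turnover gene rose with shBRD9, and in the difference 2 collagen genes were higher with shBAF250A and 0 with shBRD9. With a Bonferroni adjustment, 14 collagen genes rose and 1 fell with shBAF250A, and 8 rose and 0 fell with shBRD9. In that setting 0 basement membrane genes rose in either knockdown, 1 FACIT gene rose with shBAF250A and 0 with shBRD9, 3 genes of other types rose with shBRD9, 3 synthesis and processing genes rose and 2 fell with shBAF250A, 1 receptor gene and 1 turnover gene rose with shBRD9, and 0 collagen genes differed in either direction. Where the Wald statistics were centred on their median over all genes, -0.32 with shBAF250A and -0.24 with shBRD9, and divided by their spread, 2.18 and 1.58, 9 collagen genes rose and 0 fell with shBAF250A, and 8 rose and 0 fell with shBRD9. There 4 fibrillar genes rose with shBAF250A, 0 basement membrane genes rose in either knockdown, 1 FACIT gene rose with shBAF250A and 0 with shBRD9, and 4 and 3 genes of other types rose. In that setting 1 synthesis and processing gene rose and 0 fell with shBAF250A, 0 turnover genes fell and 1 fibril-associated gene rose with shBAF250A, and 1 receptor gene and 1 turnover gene rose with shBRD9. Against a log2 fold change of 1 in size, 14 collagen genes rose and 1 fell with shBAF250A, and 8 rose and 0 fell with shBRD9, with 0 basement membrane genes in either knockdown, 1 FACIT gene with shBAF250A and 0 with shBRD9, 4 genes of other types with shBRD9, 2 synthesis and processing genes higher and 1 lower with shBAF250A, and 1 turnover gene higher with shBRD9. Restricted to a minimum mean of 10 normalized counts, 2 collagen genes were higher with shBAF250A in the difference, and Col5a2 passed with shBRD9 at an adjusted p of 0.0482. Col2a1 and Col28a1, with means of 2.12 and 3.10 in the shBRD9 comparison, were left out by this restriction and not tested in the difference. After centring on the median gene, 1 FACIT gene rose with shBRD9, where Col12a1 and Col16a1 were at adjusted p of 0.057 and 0.0607, and Col25a1 and the Col8a2 difference were at 0.0512 and 0.0502. With a correlation of 0.5 for the shared controls, 8 collagen genes were higher with shBAF250A.

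No paired analysis was possible because the deposited tables hold no values tied to the replicate letters A and B. With 1 library left out the fold changes are ratios with no test, and among the called genes Col11a2 with shBAF250A, Col8a2 and Col15a1 with shBRD9 and Col25a1 and Col26a1 in both comparisons moved by over 1.5 times, with the values given in the report. For the 16 collagen genes whose reads were not recovered, no library was left out.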
